A study of Mus musculus with 39 samples.

Results

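Leukemic pre-B cells of mice were compared with normal pro-B cells, the B-lineage stage that precedes the pre-B stage, on the 22 of 39 expression arrays that carried either population. The members were chosen by their labels: 16 arrays carried leukemic pre-B cells, sorted from bone marrow as B220+ CD43- IgM- IgD-, and 6 carried pro-B cells, sorted from adult mouse bone marrow as B220+ CD43+ IgM- IgD-. The title of the series calls the leukemic lymphoblasts MLL-AF4. Of the leukemic arrays, 5 (A992, A1322, A1507, 270 and A46) came from mice with leukemia following treatment with pIpC, a synthetic double-stranded RNA that sets off interferon production, and 10 others came from mice described only as leukemic. Array 116 came from a mouse with the Mll-AF4stop knock-in allele, and its description does not mention leukemia, although its cell type label does. The labels give no strain, age or separate animal for the pro-B arrays, so each p-value measures only the spread between these samples. The other 17 arrays carried normal pre-B cells (8), immature B cells (6) and mature B cells (3), and the normal pre-B arrays are set beside the comparison as a guide to what B-lineage cells express.

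Pro-B cells rearrange the immunoglobulin heavy chain, with the recombinase genes Rag1 and Rag2 active and with Dntt adding untemplated bases at the joints. Cells that make a heavy chain display it with the surrogate light chain (Vpreb1 and Igll1) as the pre-B-cell receptor and become pre-B cells. Fusions of MLL (Kmt2a) with AF4 (Aff1) are found in an early B-cell leukemia of infants, and MLL fusion proteins are known for keeping Hoxa genes and Meis1 switched on. The ATF4 response is the program by which cells short of amino acids or under stress switch on genes of amino acid synthesis and transport, and its factors bind a short element close to several of its target genes. That element is shown here because genes of the program were among those higher in the leukemic cells.

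The element was searched as TGATGNAA on both strands of RefSeq promoter windows of the mouse build GRCm38.p6, which run from 250 bases before to 50 bases after a gene's start. Of 25 measured genes in a list of amino acid synthesis and ATF4 response genes, 23 had a window and 6 of these windows held the letters, against 3.13% of the 9887 measured genes with a window. Only 1 of the 6 called members with a window held them, Asns, which makes asparagine. The whole Asns window (chr6:7693160-7693459, minus strand) and 60-base stretches of the other windows follow in the direction of each gene, 5′ to 3′, with the match in capitals, which reads TGATGNAA or, where the match lies on the opposite strand, its reverse complement. Apart from Asns, none of these genes was called.
Asns: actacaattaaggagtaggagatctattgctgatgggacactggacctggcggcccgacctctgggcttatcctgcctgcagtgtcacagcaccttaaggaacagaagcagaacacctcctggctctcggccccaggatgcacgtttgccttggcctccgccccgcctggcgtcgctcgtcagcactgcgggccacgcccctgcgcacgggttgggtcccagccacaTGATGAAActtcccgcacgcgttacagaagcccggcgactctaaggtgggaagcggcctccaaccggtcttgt
Chac1: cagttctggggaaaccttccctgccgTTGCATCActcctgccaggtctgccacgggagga
Trib3: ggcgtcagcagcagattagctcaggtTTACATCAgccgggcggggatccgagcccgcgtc
Vldlr: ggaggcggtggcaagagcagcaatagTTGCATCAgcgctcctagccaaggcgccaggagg
Nupr1: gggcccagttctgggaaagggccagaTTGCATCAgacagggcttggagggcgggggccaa
Atf3: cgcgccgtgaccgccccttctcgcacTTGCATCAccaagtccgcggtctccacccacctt
The stretches lie at chr2:119351023-119351082 (Chac1, plus strand), chr2:152344013-152344072 (Trib3, minus), chr19:27216794-27216853 (Vldlr, plus), chr7:126625547-126625606 (Nupr1, minus) and chr1:191183410-191183469 (Atf3, minus). A match is a description of the sequence and does not show that a factor binds there.

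All values are log2 intensities, so a difference of 1 is 2-fold. The mean of a gene over the 22 arrays lay below 3.31 for the dimmest 10% of genes, and sizes of change are compressed towards that end of the scale. A gene was called when its Benjamini-Hochberg adjusted p in limma was under 0.05 across all 12393 genes, and "rose" and "fell" are used for called genes only. A call is termed borderline where leaving out some single array ended it, and those arrays are then named. Fewer cells of a type and less RNA per cell cannot be told apart in such bulk samples.

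The labels were first set against marker genes. On 15 of the 16 leukemic arrays B-lineage genes were high: Cd79a, a signalling chain of the B-cell receptor, lay between 10.66 and 12.04 and Vpreb1 between 12.55 and 13.45. Array 122 went against its label. Its Cd79a was 7.0, its Vpreb1 9.16, its Igll1 6.66 and its Ebf1, a factor that commits cells to the B lineage, 7.27. The same array was the highest of the 16 for Cd34, a progenitor surface protein (10.22), Gata2, a stem and mast cell factor (9.53), Itgax, an integrin of dendritic cells (11.27), and the lectin Clec10a (11.18). The counts over all genes are therefore also given without the library labelled 122, and those of a gene list wherever they differ without it. Array 226 was the other leukemic array least like the rest, with a median correlation of 0.907 with the other leukemic arrays over 12393 genes, against 0.911 for array 122 and 0.945 to 0.969 for the other 14. These values are descriptions, since all arrays share their probe sets.

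The pro-B arrays carried the RNA of other cells as well. The mean over 16 plasmacytoid dendritic cell markers lay between 5.81 and 8.77 on the leukemic arrays and between 9.35 and 10.96 on the pro-B arrays. For 19 NK and T cell markers the ranges were 4.48 to 6.97 on the leukemic arrays and 7.5 to 8.85 on the pro-B arrays, and for 22 neutrophil and monocyte markers 4.74 to 8.98 on the leukemic arrays and 8.95 to 9.66 on the pro-B arrays. Among the pro-B arrays, 2, 4 and 6 had the higher dendritic means (10.64 to 10.96) and 1, 3 and 5 the lower ones (9.35 to 9.71), and the NK and T means divided in the same way. A fall against pro-B cells in a gene that these other cells express could thus carry their share. So could a rise in a gene that they express less. Asns lay at 7.3 to 7.5 on pro-B arrays 2, 4 and 6 and at 8.4 to 8.8 on 1, 3 and 5. Tnnt2 (4.6 to 5.2 and 6.9 to 7.7) and Shmt1 (7.5 to 7.7 and 8.7 to 9.0) divided as Asns did. So did Endou, Alpl and the mean over 24 ribosome biogenesis genes (9.4 to 9.6 and 9.9 to 10.2). Not every gene that rose divided in this direction: Ddit4 lay at 11.1 to 11.2 on 2, 4 and 6 and at 10.2 to 10.8 on 1, 3 and 5. Zcchc7 was also higher on 2, 4 and 6 (11.1 to 11.2 and 10.7 to 10.8), and Hoxa10 did not divide. The part of the other cells in the results, rises or falls, was not tested. The accession numbers form 2 runs, which no label calls a batch. The beta-actin 3′ minus 5′ control signal, a measure of RNA and amplification quality, lay between 1.18 and 1.46 on the arrays of run 1 (12 leukemic and 3 pro-B arrays) and between 0.66 and 0.92 on those of run 2 (4 leukemic and 3 pro-B arrays). The same control signal of Gapdh went the other way, at 0.81 to 1.01 in run 1 and 1.02 to 1.27 in run 2. The 2 controls thus do not rank the runs alike.

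**Figure D1:**
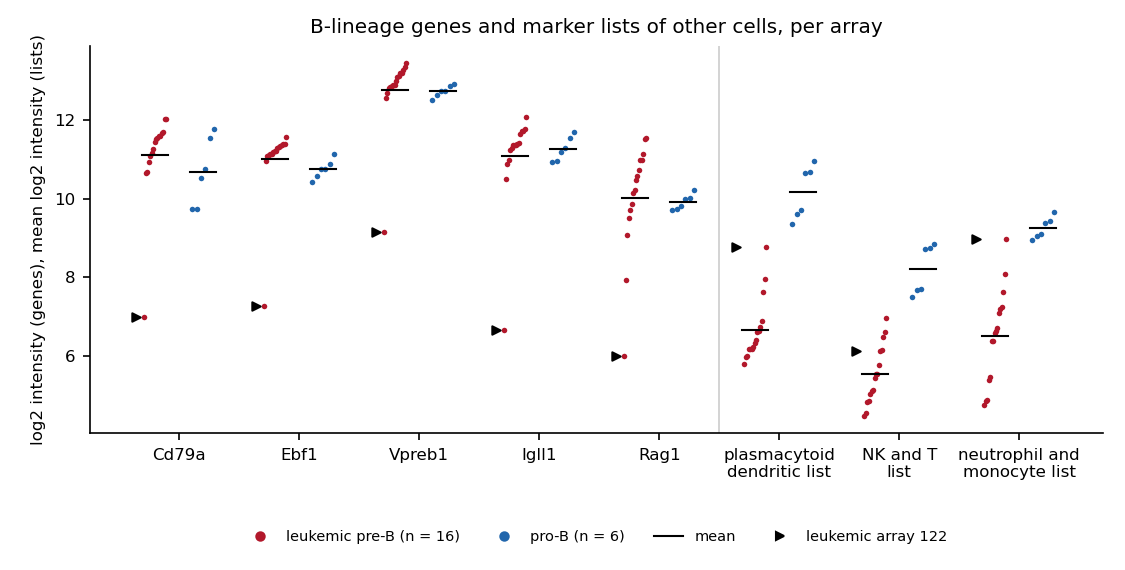
Log2 intensity of 5 B-lineage genes and mean log2 intensity of 3 marker lists of other cells, 1 point per array with the group mean as a line, for leukemic pre-B (red, left of each pair) and pro-B arrays (blue, right). The triangle marks leukemic array 122, which lies below every other array for the 5 genes and has the highest plasmacytoid dendritic and neutrophil and monocyte means of the 16 leukemic arrays.

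Against pro-B cells, 1005 genes were higher in the leukemic cells (8.11% of those tested) and 945 were lower (7.63%). Large changes were mostly falls: 95 genes rose at least 2-fold (0.767%) and 684 fell at least 2-fold (5.52%). Among the 5977 genes that normal pre-B cells expressed (mean of at least 7 over the 8 arrays), 206 rose (3.45%) and 427 fell (7.14%), with 24 (0.402%) and 270 (4.52%) of them at least 2-fold, so that 10.6% of this class was called, against 15.7% of all genes. Genes under that level held 799 of the rises (12.5% of 6416) and 518 of the falls (8.07%), with 71 (1.11%) and 414 (6.45%) of them at least 2-fold. No leukemic array overlapped a pro-B array for 51 genes in which all 16 leukemic arrays were above every pro-B array (0.412%) and for 141 in which all 16 were below (1.14%); for the 15 arrays other than 122 it was 100 genes above (0.807%) and 234 below (1.89%). Over all genes the differences had a median of 0.126, beside 0.03 for the genes expressed in normal pre-B cells.

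Without array 122, 1517 genes rose (12.2%) and 1209 fell (9.76%), 153 of them by at least 2-fold upwards (1.23%) and 809 downwards (6.53%); of the genes expressed in normal pre-B cells 356 rose (5.96%) and 569 fell (9.52%), with 44 (0.736%) and 333 (5.57%) at least 2-fold. Other single arrays moved the counts too. Without leukemic array 226, 1738 genes rose, and without pro-B arrays 1, 2, 3, 4 or 6 it was 500, 278, 472, 628 and 346, while leaving out pro-B array 2 or 6 left 582 or 611 falls and 50 or 59 rises of at least 2-fold. Of the genes expressed in normal pre-B cells, 59, 102 and 91 rose and 222, 273 and 238 fell without pro-B array 2, 4 and 6, and 359 rose without leukemic array 226. Within run 1, 47 genes rose and 297 fell, and within run 2, 230 rose and 556 fell. All 1950 called genes had the same sign in both runs, but they were called on the arrays of both runs together, so this is not an independent check. When each array was centred on its own median, the median difference of all genes moved to 0.413 and the split became 5537 higher (44.7%) and 768 lower (6.2%), so small rises are read below against the median of all genes. Counts of called list members are likewise to be read beside the shares of all genes that rose and fell.

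The leukemic arrays varied more among themselves than the pro-B arrays. The SD of a gene had a median of 0.43 over the leukemic arrays and 0.27 over the pro-B arrays, and it was larger among the leukemic arrays for 9859 of 12393 genes, or for 9674 without array 122.

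Of the 95 genes that rose at least 2-fold, 36 were also at least 2-fold above the normal pre-B mean and 59 lay within 2-fold of it; none lay 2-fold below it. The normal pre-B stage shares the leukemic sort gate. The first set was above both normal stages, while a 2-fold cut does not show that the second set sits at the normal pre-B level. Without array 122 the first set was 54 of 153, and without pro-B array 2 it was 23. Only 7 of the 95 had all 16 leukemic arrays above every pro-B array, and 30 had at least 15; without array 122, 25 of the 153 had all 15 arrays above and 63 at least 14.

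The rises described first were the largest among genes above every pro-B array on at least 90% of the leukemic arrays. Several were in genes that normal pre-B and pro-B cells hardly express. Hoxa10, a homeobox gene of the Hoxa cluster, ranged from 3.23 to 10.84 on the leukemic arrays (median 8.94), against 2.77 to 3.83 on the pro-B arrays (median 3.36). It was above every pro-B array on 15 arrays, with array 154 inside the pro-B range and arrays 116, 117, 17 and A46 above that range but below 5. The difference was 4.31 ± 1.06 (SE, adjusted p = 0.0097). Lhx2, a LIM homeobox factor of stem cells, ranged from 3.66 to 10.24 on the leukemic arrays (median 8.22), against 3.72 to 4.25 on the pro-B arrays (median 4.0), and here the low array was 122. It differed by 3.85 ± 0.69 (SE, adjusted p = 0.000508), and by 4.12 without array 122. Insm1, a zinc finger factor of neuroendocrine cells, ranged from 4.04 to 9.63 on the leukemic arrays (median 7.98), against 3.6 to 3.97 on the pro-B arrays (median 3.83), with all 16 arrays above every pro-B array, and differed by 3.56 ± 0.66 (SE, adjusted p = 0.000661).

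Ryr2, a calcium release channel of heart muscle, ranged from 5.55 to 10.46 on the leukemic arrays (median 9.08), against 3.74 to 5.58 on the pro-B arrays (median 4.58). Its difference was 3.82 ± 0.66 (SE, adjusted p = 0.000367), with 15 arrays above every pro-B array, but its other probe set gave 1.24. Normal pre-B arrays had Ryr2 at 4.26 to 6.78, a range that held leukemic arrays 122 (5.55), A46 (5.82) and 17 (6.01). Cdkn2a encodes the cell cycle inhibitor p16 and the p53 activator p19Arf, and it ranged from 4.39 to 10.13 on the leukemic arrays (median 5.61), against 3.41 to 4.10 on the pro-B arrays (median 3.79). All 16 arrays lay above the pro-B arrays, with arrays 117, 116, 122 and A1507 the highest, and the difference was 2.40 ± 0.68 (SE, adjusted p = 0.0216). This call was borderline: it was lost without pro-B array 2 or 6, with differences of 2.13 to 2.51 over all single arrays left out. Its neighbour Cdkn2b, the inhibitor p15, rose by 1.32 ± 0.36 (SE, adjusted p = 0.0171) on 15 arrays above every pro-B array.

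The remaining large rises among genes low in normal pre-B cells were smaller. Slc4a8, a bicarbonate transporter, rose by 1.60 ± 0.33 (SE, adjusted p = 0.00224) with all 16 arrays above the pro-B arrays, and Tuft1, first known from tooth enamel, rose by 1.54 ± 0.33 (SE, adjusted p = 0.00332) with array 226 alone below the pro-B range. Crxos, a homeobox gene, was 1.36 higher (adjusted p = 0.0308), but its normal pre-B mean of 5.16 lay close to the leukemic mean of 5.18, and its call ended when pro-B array 1, 2, 4 or 6 was left out (1.21 to 1.49). Cbr3, a carbonyl reductase, was 1.35 higher (adjusted p = 0.0396) on all 16 arrays, a call lost without any 1 pro-B array or without leukemic array 17, 227 or 228 (1.18 to 1.42).

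Among genes that normal pre-B cells do express, Tnnt2, a troponin of heart muscle, rose furthest by the same rule. It ranged from 3.10 to 10.30 on the leukemic arrays (median 9.44), against 4.62 to 7.68 on the pro-B arrays (median 6.08), so that 15 arrays lay above every pro-B array and array 122 alone below. The difference was 2.87 ± 0.71 (SE, adjusted p = 0.00969), or 3.27 (adjusted p = 1.45e-06) without array 122, and the normal pre-B mean was 7.11. Alpl, tissue-nonspecific alkaline phosphatase, ranged from 5.86 to 11.18 on the leukemic arrays (median 10.16), against 6.67 to 8.67 on the pro-B arrays (median 7.66), with the same array low, and differed by 2.18 ± 0.49 (SE, adjusted p = 0.00476). Its normal pre-B mean of 8.09 was close to that of pro-B cells, so the leukemic cells were above both stages. Zcchc7, a subunit of a nuclear RNA surveillance complex, ranged from 10.58 to 12.54 on the leukemic arrays (median 12.37), against 10.70 to 11.24 on the pro-B arrays (median 10.96). Without array 122 its lowest leukemic value was 12.03, its difference 1.41 (adjusted p = 6.94e-11), and its normal pre-B mean 10.76.

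Endou, Fgd6, Ddit4, Tnk2 and H2bc22 rose to about the normal pre-B level. Endou, an endoribonuclease, ranged from 6.41 to 11.05 on the leukemic arrays (median 9.49), against 6.22 to 8.0 on the pro-B arrays (median 7.12), and the normal pre-B mean was 8.96. It was 2.32 ± 0.51 (SE, adjusted p = 0.00393) higher, with array 122 inside the pro-B range. Fgd6, an activator of the small GTPase Cdc42, was 1.54 ± 0.36 (SE, adjusted p = 0.00629) higher, with a leukemic mean of 6.82 that stayed under the normal pre-B mean of 7.54. Tnk2, a non-receptor tyrosine kinase, rose by 1.04 ± 0.19 (SE, adjusted p = 0.00054) and H2bc22, a histone H2B gene, by 1.03 ± 0.20 (SE, adjusted p = 0.000905), each on 15 arrays above every pro-B array. Akr7a5, an aldehyde reductase, and Fam118a rose by 0.90 and 0.86 (adjusted p = 0.00221 and 0.00146).

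**Figure D2:**
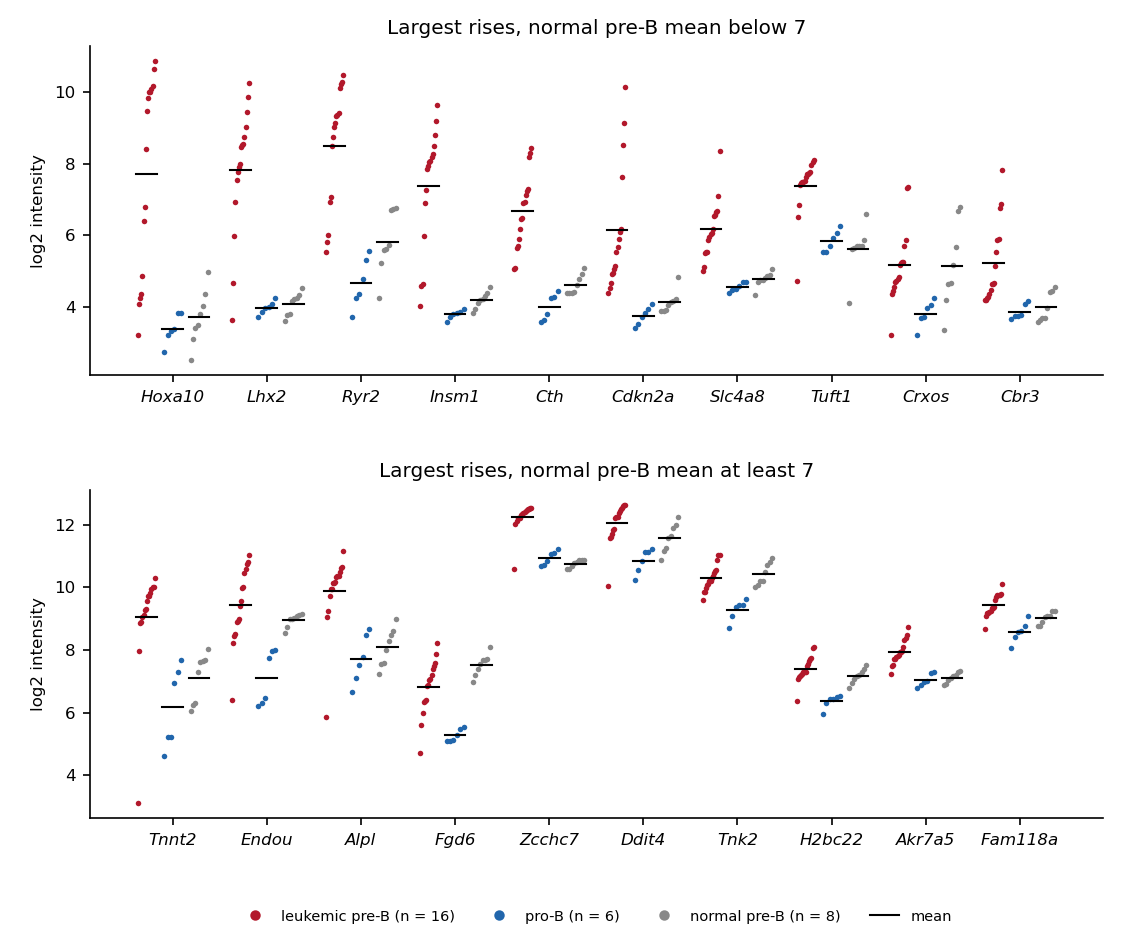
Log2 intensity of 20 genes, the largest rises among those above every pro-B array on at least 90% of the leukemic arrays, 1 point per array with the group mean as a line, in leukemic pre-B (red), pro-B (blue) and normal pre-B arrays (grey), for genes with a normal pre-B mean below 7 (top) and of at least 7 (bottom). Zcchc7 and Alpl stand above both normal stages, while Endou, Tnk2 and H2bc22 lie near the normal pre-B points; the lone low leukemic point of Tnnt2, Alpl, Zcchc7 and Endou is array 122.

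Genes of amino acid synthesis and the ATF4 response were called more often than all genes: 8 of 25 measured members were called higher and 0 lower, beside 8.11% of all genes, with a median difference of 0.43 beside 0.126. Cth, which makes cysteine from cystathionine, ranged from 5.08 to 8.44 on the leukemic arrays (median 6.69), against 3.6 to 4.46 on the pro-B arrays (median 4.04), without overlap. It differed by 2.67 ± 0.43 (SE, adjusted p = 0.000137), and its normal pre-B mean was 4.63. Asns, the asparagine synthetase whose promoter holds the element, ranged from 7.93 to 10.79 on the leukemic arrays (median 9.44), against 7.27 to 8.80 on the pro-B arrays (median 7.99). It lay above every pro-B array on 13 arrays and differed by 1.56 ± 0.37 (SE, adjusted p = 0.00727), while its normal pre-B mean was only 6.62. Ddit4, an inhibitor of the growth kinase mTORC1, ranged from 10.04 to 12.64 on the leukemic arrays (median 12.25), against 10.24 to 11.23 on the pro-B arrays (median 10.98), with array 116 alone below the pro-B range, and differed by 1.21 ± 0.27 (SE, adjusted p = 0.00391).

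The other 5 called members of the list differed by less; Shmt2, Psat1, Mthfd2, Eif4ebp1 and, further on, Stc2 are named after their values were seen. Shmt1 and Shmt2, the cytosolic and mitochondrial enzymes that turn serine into glycine, rose by 1.13 ± 0.31 (SE, adjusted p = 0.0191) and 0.87 ± 0.23 (SE, adjusted p = 0.0138), each above every pro-B array on 12 arrays. Psat1, an enzyme of serine synthesis, and Mthfd2, a mitochondrial folate enzyme, rose by 0.46 and 0.58 (adjusted p = 0.0427 and 0.0499), and Eif4ebp1, a brake on translation initiation, rose by 0.97 (adjusted p = 0.03). All of these were borderline. Without pro-B array 2 or 6 none of the 5 was called, and without pro-B array 4 Shmt1, Eif4ebp1, Mthfd2 and Psat1 were not. Mthfd2 was lost on leaving out any of 16 arrays (also leukemic 116, 117, 153, 154, 17, 224, 227, 228, 270, A1322 and A46, and pro-B 1 and 3) and Psat1 on any of 11 (also leukemic 116, 153, 154, 17, 224, 228, 270 and A46). Their differences kept their sign throughout, at 0.99 to 1.29 for Shmt1, 0.73 to 0.98 for Shmt2, 0.49 to 0.67 for Mthfd2, 0.38 to 0.55 for Psat1 and 0.74 to 1.13 for Eif4ebp1.

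Among the uncalled members, Vldlr, a lipoprotein receptor, was 1.02 higher (adjusted p = 0.136) and Chac1, which breaks down glutathione, 0.94 higher (adjusted p = 0.202). Stc2, a secreted stress-induced glycoprotein, was 0.34 higher (adjusted p = 0.0574) and was called once array 122, 154 or 226 was left out. The list gave 9 calls without array 122, beside rises in 12.2% of all genes. It gave 1 within run 1, where 47 of all 12393 genes rose, and 4 within run 2, where 230 rose. Under median centring 14 of the 25 were called higher, beside 44.7% of all genes.

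**Figure D3:**
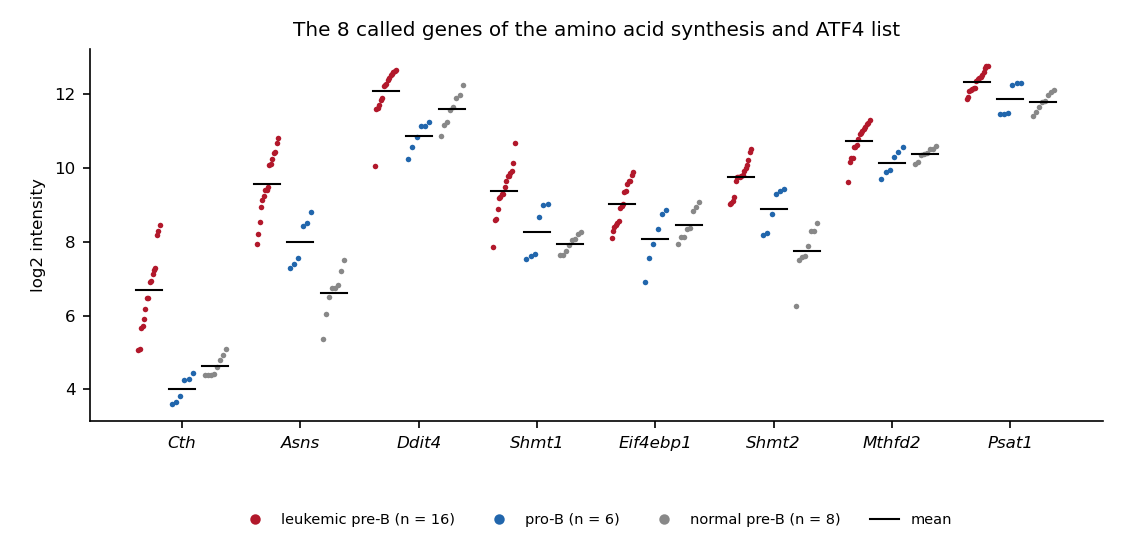
Log2 intensity of the 8 called genes of the amino acid synthesis and ATF4 list, 1 point per array with the group mean as a line, in leukemic pre-B (red), pro-B (blue) and normal pre-B arrays (grey). Cth separates the leukemic from the pro-B arrays without overlap, and the other 7 genes overlap on at least 1 array.

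Of 24 ribosome biogenesis genes, 22 had a difference above 0, as had 7923 of all 12393 genes, with a median of 0.35 beside 0.126. Of the 24, 4 rose, beside 8.11% of all genes, and 6 without array 122, beside 12.2%. The 4 were Wdr12, a partner of the Pes1 complex that matures the large ribosomal subunit, by 0.66 (adjusted p = 0.0217), Tsr1, which acts on the small subunit, by 0.59 (adjusted p = 0.0333), and the RNA polymerase I subunits Polr1a and Polr1c by 0.52 (adjusted p = 0.0296) and 0.39 (adjusted p = 0.0183). All 4 calls were borderline, being lost without pro-B array 2 or 6, for Wdr12, Tsr1 and Polr1a also without pro-B array 4, and for Tsr1 without pro-B array 5; the differences stayed at 0.51 to 0.81 for Wdr12, 0.50 to 0.69 for Tsr1, 0.44 to 0.57 for Polr1a and 0.34 to 0.43 for Polr1c. Pes1 itself was 0.66 higher and uncalled (adjusted p = 0.0615), but was called without leukemic array 226 or pro-B array 1. Ribosome biogenesis list means overlapped between the groups, at 9.77 to 10.51 on the leukemic arrays and 9.38 to 10.22 on the pro-B arrays. With each array centred on its median, 20 of the 24 were called higher, beside 44.7% of all genes.

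Of 12 amino acid transporters, 1 rose (2 without array 122), a share close to the 8.11% of all genes: Slc7a1, which carries arginine and lysine, by 0.44 ± 0.11 (SE, adjusted p = 0.0101), at a level near the low end of the scale (means of 3.47 in leukemic and 3.03 in pro-B cells). Slc1a4, a carrier of serine and alanine, was 1.03 higher with a wide spread and was not called (adjusted p = 0.165). None of 17 aminoacyl-tRNA synthetases was called. All 17 differences were above 0 (median 0.26), as were 7923 of all 12393 (median 0.126), and 1 had an unadjusted p under 0.05 in limma. Gars was the largest at 0.57 (adjusted p = 0.0634), and it was called without leukemic array 226 or A1322 or pro-B array 1. After median centring 10 of the 17 were called higher, beside 44.7% of all genes.

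None of 27 DNA replication and nucleotide synthesis genes and none of 27 mitosis and spindle genes was called in limma, with medians of 0.20 and 0.03, and 2 and 0 of them had an unadjusted p under 0.05. Mki67, a protein of dividing cells, ranged from 11.15 to 12.60 on the leukemic arrays (median 12.10), against 11.71 to 12.66 on the pro-B arrays (median 12.26), and its difference of -0.12 ± 0.18 (SE, adjusted p = 0.635) was small beside the spread. The replication list means ran from 9.34 to 10.43 on the leukemic arrays and from 9.13 to 10.48 on the pro-B arrays. The second range held the whole of the first. It was divided as the dendritic means were, at 9.13 to 9.38 on pro-B arrays 2, 4 and 6 and 9.98 to 10.48 on 1, 3 and 5. The mitosis list means of the pro-B arrays divided in the same way (9.6 to 9.9 and 10.5 to 10.9). The part of the other cells in this spread, and so in the absence of calls, was not tested. Cad, which starts pyrimidine synthesis, was 0.48 higher (adjusted p = 0.0995) and called only without pro-B array 1. Under median centring 11 replication genes and 2 mitosis genes were called higher, both smaller shares than the 44.7% of all genes.

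Energy metabolism changed in single genes. Of all genes, 8.11% rose (12.2% without array 122) and 7.63% fell. Ldhb, the lactate dehydrogenase subunit typical of heart, ranged from 2.62 to 5.86 on the leukemic arrays (median 3.86), against 8.27 to 9.90 on the pro-B arrays (median 9.20), with no overlap, and fell by 4.95 ± 0.50 on the log2 scale (SE, adjusted p = 1.99e-07). The normal pre-B mean, 6.11, lay between the groups. Of the 18 measured glycolysis and glucose uptake genes, Pgam1, a glycolytic mutase, rose by 0.47 (adjusted p = 0.013, lost without pro-B array 2), and Hk1, a hexokinase, fell by 0.74 (adjusted p = 0.0388), a borderline call lost without any 1 pro-B array or leukemic array 17 or A992. Slc2a3, a glucose transporter, ranged widely, from 3.02 to 10.75 on the leukemic arrays (median 10.14), against 10.38 to 11.70 on the pro-B arrays (median 11.14), and was not called (adjusted p = 0.159). Of 21 oxidative phosphorylation genes, of which 1 rose (2 without array 122), 20 were above 0, as were 7923 of all 12393 genes. Their median of 0.10 was below that of all genes. Only Ndufb8, a complex I subunit, was called at 0.25 (adjusted p = 0.0416), a call lost without any of 11 arrays (leukemic 116, 154, 17, 224, 228, A1507 and A992, and pro-B 2, 3, 4 and 6).

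**Figure D4:**
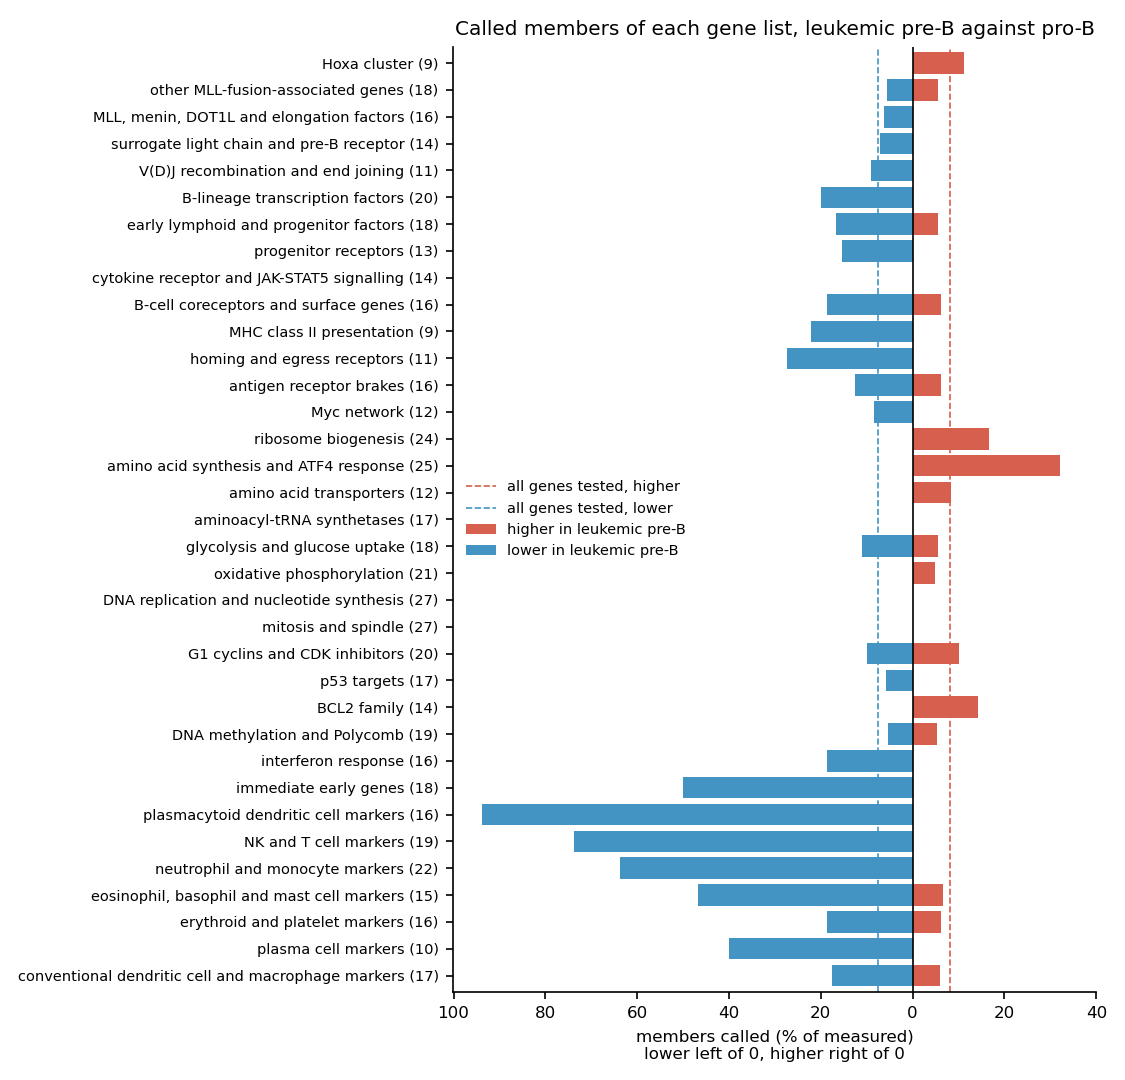
Share of the measured members of 35 gene lists called higher (red, right of 0) or lower (blue, left of 0) in leukemic pre-B against pro-B cells, with the number measured in brackets and the shares of all 12393 genes as dashed lines (8.11% higher, 7.63% lower). The amino acid and ATF4 list has the largest share of rises (8 of 25), and the plasmacytoid dendritic (15 of 16), NK and T (14 of 19) and neutrophil and monocyte lists (14 of 22) the largest shares of falls.

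Of 9 measured genes of the Hoxa cluster 1 rose, Hoxa10, beside 8.11% of all genes. The other 8 were above 0 without being called, with a median of 0.81 over the list. Over all 12393 genes 7923 were above 0. Hoxa9 ranged from 3.24 to 11.24 on the leukemic arrays (median 10.77), against 6.86 to 8.08 on the pro-B arrays (median 7.38). It was above every pro-B array on 13 arrays and below all of them on arrays 116, 117 and 154, at 3.79, 4.52 and 3.24, so that the mean difference of 1.99 ± 1.10 (SE, adjusted p = 0.194) averages over both sets of arrays. Hoxa5 was 1.16 higher (adjusted p = 0.116). Meis1, the usual partner of Hoxa9, ranged from 2.86 to 6.98 on the leukemic arrays (median 5.59), against 3.46 to 4.48 on the pro-B arrays (median 3.73), with 11 arrays above and 3 below the pro-B range, and was not called (difference 1.43, adjusted p = 0.0709), though it was without leukemic array 116, 117 or A1507.

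Of 18 other genes associated with MLL fusions, 1 rose (Cdkn2a) and 1 fell, the progenitor surface protein Prom1, by 2.33 ± 0.43 on the log2 scale (SE, adjusted p = 0.000646), with 14 arrays below every pro-B array. These counts of 1 each way stand beside 8.11% of all genes that rose and 7.63% that fell. Without array 122, 2 of the 18 rose and 3 fell, beside 12.2% and 9.76%. Flt3, a growth factor receptor of early progenitors, ranged from 4.12 to 12.01 on the leukemic arrays (median 6.76), against 8.30 to 10.60 on the pro-B arrays (median 9.55). It was below the pro-B range on 12 arrays and above it on 117 and 122, and the difference of -2.33 was not called (adjusted p = 0.0599) until array 117 or 122 was left out, at -2.58 (adjusted p = 0.0215) without array 122. Cdk6, a G1 kinase, and Myc overlapped the pro-B arrays, with differences of 0.57 (adjusted p = 0.386) and 0.24 (adjusted p = 0.61). Bcl2, a survival protein, was -1.05 (adjusted p = 0.138) and was called lower without array 122, at -1.25 (adjusted p = 0.0321).

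Of 16 genes of the MLL, menin, DOT1L and elongation list 1 was called, beside 15.7% of all genes, and 1 rose as well without array 122. The called gene was Kmt2a, the MLL gene itself. It ranged from 6.44 to 10.43 on the leukemic arrays (median 10.08), against 10.63 to 11.23 on the pro-B arrays (median 11.07), all 16 below, with arrays A46 (6.52) and 17 (6.44) far lower than the other 14. The fall of 1.42 (adjusted p = 0.0485) was borderline, lost without any 1 pro-B array or any of leukemic arrays 116, 15, 154, 224, 227, 228, 270 and A992. Aff1, the mouse AF4 gene, did not separate the groups, with a difference of 0.04 (adjusted p = 0.845), and turned below 0 without pro-B array 1 (-0.01). Whether probe sets for these genes read a fusion transcript was not tested. Ell2, an elongation factor, differed by -2.09 without a call (adjusted p = 0.0857).

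Among G1 cyclins and CDK inhibitors, 2 of 20 rose (Cdkn2a and Cdkn2b) and 2 fell, shares near the 8.11% and 7.63% of all genes. Without array 122, 4 fell, beside 9.76% of all genes. Ccnd1, cyclin D1, ranged from 6.37 to 12.14 on the leukemic arrays (median 7.16), against 10.37 to 11.77 on the pro-B arrays (median 11.23). It was below every pro-B array on 13 arrays and above them on 2, one of which was 122, and the fall was 3.19 ± 0.73 on the log2 scale (SE, adjusted p = 0.00533). Ccnd2, cyclin D2, fell by 2.58 (adjusted p = 0.0388) with 11 arrays below and 3 above, a borderline call lost without any 1 pro-B array or leukemic array 154, 224, 227, 228, 270 or A1322 (-2.79 to -2.37).

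**Figure D5:**
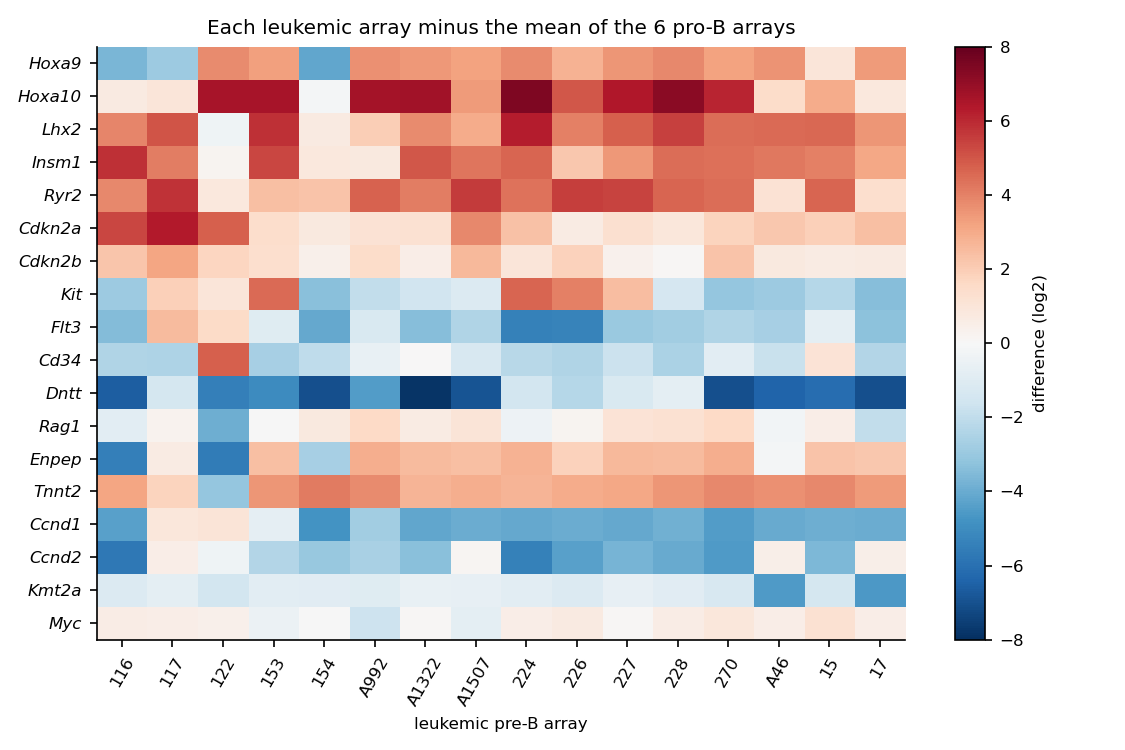
Log2 intensity of 18 genes on each of the 16 leukemic arrays minus the mean of the 6 pro-B arrays, red above and blue below the pro-B mean. Hoxa9 is below the pro-B mean on arrays 116, 117 and 154, Kit is above every pro-B array on 6 arrays, Dntt is below it on all 16, and Tnnt2 is below it on array 122 alone.

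Of 14 surrogate light chain and pre-B receptor genes 0 rose and 1 fell (Pik3ap1, an adaptor of PI3-kinase, by 0.90, adjusted p = 0.0363, lost without pro-B array 1, 2, 3, 4 or 6 or leukemic array 154 or 224), beside 8.11% and 7.63% of all genes. Without array 122, 3 rose and 1 fell, beside 12.2% and 9.76%. Vpreb1 ranged from 9.16 to 13.45 on the leukemic arrays (median 12.95), against 12.52 to 12.92 on the pro-B arrays (median 12.73), and Igll1 from 6.66 to 12.07 on the leukemic arrays (median 11.37), against 10.94 to 11.69 on the pro-B arrays (median 11.24), with differences of 0.04 and -0.18 (adjusted p = 0.953 and 0.809). Without array 122 they were 0.28 and 0.11 (adjusted p = 0.0565 and 0.651). Cd79a and Cd79b, the signalling pair of the receptor, were 0.44 and 0.42 higher without a call (adjusted p = 0.536 and 0.275), and without array 122 they were called at 0.72 and 0.58 (adjusted p = 0.0488 and 0.00845).

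Further down the same receptor, Blk, a Src-family kinase, and Blnk, the adaptor of the receptor, differed by -1.63 and -1.41 without a call (adjusted p = 0.0681 and 0.0718), with 9 and 10 leukemic arrays below every pro-B array. Blk was called without leukemic array A992. Ighm, the mu heavy chain, differed by -0.35 (adjusted p = 0.34), and its 11 probe sets disagreed, from -4.64 to 0.46. The list means were 8.51 to 10.66 on the leukemic arrays and 10.07 to 10.98 on the pro-B arrays.

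Of 11 V(D)J and end-joining genes only Dntt, terminal transferase, was called, beside 15.7% of all genes. It ranged from 3.91 to 10.95 on the leukemic arrays (median 5.94), against 11.56 to 11.90 on the pro-B arrays (median 11.70), all 16 below every pro-B array but widely spread, and fell by 4.81 ± 0.96 on the log2 scale (SE, adjusted p = 0.00157). The normal pre-B mean, 9.75, lay above the leukemic median. Rag1 and Rag2 overlapped the pro-B arrays, at differences of 0.11 and 0.19 (adjusted p = 0.911 and 0.809), or 0.38 and 0.45 (adjusted p = 0.474 and 0.29) without array 122.

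Among the 20 transcription factors of the B lineage, 4 were called lower and 0 higher, beside 7.63% and 8.11% of all genes. Without array 122, 4 fell and 6 rose, beside 9.76% and 12.2%. Irf8, which directs both B-cell and dendritic cell development, ranged from 8.87 to 12.17 on the leukemic arrays (median 10.21), against 11.72 to 12.93 on the pro-B arrays (median 12.47), and Tcf4, an E protein, from 10.87 to 12.20 on the leukemic arrays (median 11.45), against 12.17 to 12.98 on the pro-B arrays (median 12.64). Each lay below the pro-B range on 15 arrays, and they fell by 2.10 and 1.09 on the log2 scale (adjusted p = 0.000107 and 0.000145). Spib, an Ets factor, fell by 0.90 (adjusted p = 0.0168, lost without pro-B array 2). Plasmacytoid dendritic cells also express Irf8, Tcf4 and Spib, and their markers fell on the same arrays; the part of these cells in the 3 falls was not tested. Klf2, a factor of lymphocyte quiescence and homing, fell by 1.53 ± 0.36 on the log2 scale (SE, adjusted p = 0.00617), with 10 arrays below the pro-B range and a normal pre-B mean of 10.10.

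Ebf1, Pax5 and Bach2 were uncalled with all arrays and called higher without array 122. Ebf1 differed by 0.24 (adjusted p = 0.679) and by 0.49 without array 122 (adjusted p = 0.000877), with 11 arrays above every pro-B array. Pax5 went with it, at 0.43 (adjusted p = 0.14) and 0.51 without array 122 (adjusted p = 0.0431). Bach2, a repressor that sets the pre-B checkpoint, was 0.48 (adjusted p = 0.349) and 0.66 without array 122 (adjusted p = 0.0414). Their normal pre-B means, 11.46, 5.62 and 12.12, lay above the leukemic means.

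Early lymphoid and progenitor factors moved both ways, with 1 of 18 up and 3 down, beside 8.11% and 7.63% of all genes. Sox4, a factor that early B cells need, rose by 0.49 (adjusted p = 0.033, lost without pro-B array 1, 2, 3 or 4), and normal pre-B cells had more still (mean 12.22). Notch1, a receptor that steers progenitors to T cells, ranged from 8.26 to 10.19 on the leukemic arrays (median 9.51), against 10.09 to 11.31 on the pro-B arrays (median 10.80), and fell by 1.31 on the log2 scale (adjusted p = 0.000284) with 15 arrays below the pro-B range. Gata2 ranged from 4.23 to 9.53 on the leukemic arrays (median 4.58), against 6.36 to 7.66 on the pro-B arrays (median 7.04), array 122 being the highest, and fell by 2.02 (adjusted p = 0.0116), or by 2.32 (adjusted p = 1.93e-07) without that array. Id2, an inhibitor of E proteins that NK and dendritic cells express, fell by 1.73 (adjusted p = 0.0327, lost without pro-B array 2, 4 or 6). Erg, a stem cell Ets factor, overlapped, at 0.28 (adjusted p = 0.716).

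The progenitor receptors had 0 of 13 up and 2 down, beside 8.11% and 7.63% of all genes, and a median of -0.40. Without array 122, 6 were down, beside 9.76%. Cd27, a costimulatory receptor, ranged from 3.4 to 8.91 on the leukemic arrays (median 4.26), against 6.47 to 8.49 on the pro-B arrays (median 7.5), below the pro-B range on 14 arrays, and fell by 2.95 ± 0.56 on the log2 scale (SE, adjusted p = 0.00103). Prom1 was the other called member. Kit, the stem cell factor receptor, divided the leukemias. It ranged from 2.60 to 10.68 on the leukemic arrays (median 4.58), against 5.61 to 6.53 on the pro-B arrays (median 5.95), above every pro-B array on 6 arrays and below every one on the other 10, and its mean difference of -0.34 was not called (adjusted p = 0.856). Cd34 differed by -1.20 (adjusted p = 0.242) and fell by 1.60 without array 122 (adjusted p = 0.0108). Spn, which encodes the CD43 of the pro-B gate and so was used to sort the cells, was -0.86 (adjusted p = 0.0509).

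The cytokine receptor and JAK-STAT5 list had no called member of 14 in limma, with a median of -0.03 and 1 with an unadjusted p under 0.05, and 1 rise without array 122. Il7r, the receptor chain for the survival cytokine of early B cells, ranged from 8.58 to 12.13 on the leukemic arrays (median 11.91), against 11.50 to 11.79 on the pro-B arrays (median 11.71), 11.01 or higher on every array except 122, and differed by -0.05 (adjusted p = 0.934), or by 0.15 without array 122. Il2ra, which marks normal pre-B cells (mean 9.78), was 1.07 higher without a call (adjusted p = 0.144). Bcl2l1, the survival protein Bcl-xL that lies downstream of these receptors, was 0.88 higher (adjusted p = 0.0985), and 0.98 higher with a call without array 122 (adjusted p = 0.0446) or 116.

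Among surface genes of B cells, 1 of 16 rose and 3 fell, beside 8.11% and 7.63% of all genes, and 2 rose without array 122, beside 12.2%. Cr2, a complement receptor of mature B cells, rose by 1.08 ± 0.29 (SE, adjusted p = 0.0152) to a leukemic mean of 5.77, with 14 arrays above every pro-B array. Cd180, a Toll-like receptor homologue, fell by 1.85 ± 0.47 on the log2 scale (SE, adjusted p = 0.0119), with array 122 the highest of the leukemic arrays. Fcrla, an Fc receptor-like protein, and Cd72, an inhibitory coreceptor, fell by 1.75 and 1.67 (adjusted p = 0.043 and 0.0196), although normal pre-B cells had more of both (means 12.07 and 11.88) than pro-B cells. Both calls were borderline: that of Fcrla was lost without any 1 pro-B array or leukemic array 116, 224 or 270 and that of Cd72 without pro-B array 1, 2 or 3. Enpep, the BP-1 antigen of late pro-B and pre-B cells, ranged from 2.63 to 11.18 on the leukemic arrays (median 10.57), against 7.48 to 8.93 on the pro-B arrays (median 8.27), with 11 arrays above and 3 below the pro-B range, and was not called (adjusted p = 0.59). Ptprc, whose product carries the B220 epitope of the sort, was -0.60 (adjusted p = 0.0692).

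Antigen presentation was lower where it was called. Of 9 MHC class II presentation genes, 2 fell, beside 7.63% of all genes, and the median was -1.28. Without array 122, 4 fell, beside 9.76%. H2-DMa, which helps load peptides, fell by 2.09 (adjusted p = 0.0343), and Ctss, a protease of that pathway, by 1.5 (adjusted p = 0.0263). Both calls were lost without pro-B array 2, 4 or 6, the arrays with the highest dendritic marker means, at differences of -2.31 to -1.90 for H2-DMa and -1.62 to -1.35 for Ctss. Cd74, the invariant chain, differed by -1.51 (adjusted p = 0.0514) and was called without leukemic array 117, 122 or 226 or pro-B array 5. Dendritic cells are rich in these products, and their part here was not tested.

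Homing receptors had 0 of 11 up and 3 down, beside 8.11% and 7.63% of all genes, or 5 down without array 122, beside 9.76%. Ccr9, a chemokine receptor of gut homing that plasmacytoid dendritic cells also carry, ranged from 4.94 to 8.86 on the leukemic arrays (median 6.31), against 10.06 to 11.74 on the pro-B arrays (median 11.03), without overlap, and fell by 4.47 ± 0.46 on the log2 scale (SE, adjusted p = 2.23e-07). Itgb7, an integrin chain of gut homing, fell by 3.18 (adjusted p = 0.00476) with array 122 alone above the pro-B range, at 11.66. Itgal, the LFA-1 integrin chain, fell by 2.09 (adjusted p = 0.00102) on 14 arrays below every pro-B array. Ccr7, a lymph node homing receptor that normal pre-B cells express (mean 8.75), was not called (-1.14, adjusted p = 0.134).

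Brakes on antigen receptor signals gave 1 rise and 2 falls among 16, beside 8.11% and 7.63% of all genes. Without array 122 they gave 3 rises and 2 falls, beside 12.2% and 9.76%. Dusp6, a phosphatase that switches off ERK, ranged from 10.30 to 11.92 on the leukemic arrays (median 11.05), against 9.69 to 10.65 on the pro-B arrays (median 10.42). It rose by 0.80 ± 0.21 (SE, adjusted p = 0.014), above every pro-B array on 13 arrays and close to the normal pre-B mean of 11.24. Spred1, another inhibitor of the same pathway, was 0.93 higher without a call (adjusted p = 0.0513), but was called without leukemic array 122, 226, 227, 228 or A992 or pro-B array 5. Dok2, an adaptor of myeloid and T cells, fell by 1.45 (adjusted p = 0.0128, lost without pro-B array 2), and Ptpn6, the phosphatase SHP-1, fell by 0.99 (adjusted p = 0.043), lost without any of pro-B arrays 1, 2, 3, 4 and 6 and leukemic arrays 154, 224, 227, 270, A1322, A1507 and A992.

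In the Myc network 1 of 12 genes was called, beside 15.7% of all genes. Mycl fell by 4.31 ± 0.66 on the log2 scale (SE, adjusted p = 7.15e-05) on 15 arrays below every pro-B array, with array 122 at 9.47. Its 3 probe sets ranged from -4.31 to -0.20. Of 14 BCL2 family genes, the death-promoting Bmf and Hrk rose by 0.66 (adjusted p = 0.00562) and 0.59 (adjusted p = 0.0187, lost without pro-B array 6), and both stayed low, at leukemic means of 4.67 and 5.09. The 2 rises of the family stood beside 8.11% of all genes. Without array 122 it had 4 rises and 1 fall, beside 12.2% and 9.76% of all genes. Pmaip1, another death-promoting member, was 1.0 higher without a call (adjusted p = 0.13).

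Of 17 p53 targets only Btg2, an antiproliferative gene, was called, beside 15.7% of all genes. Btg2 fell by 1.34 ± 0.32 on the log2 scale (SE, adjusted p = 0.0067) with 14 arrays below the pro-B range. Of 19 DNA methylation and Polycomb genes, Dnmt3a, a de novo DNA methyltransferase, was 0.53 higher (adjusted p = 0.0373), lost without any of leukemic arrays 224, 227, 228 and A1322 and pro-B arrays 1, 2, 3, 4 and 6, and its 5 probe sets ran from -0.44 to 0.53, so its direction is uncertain. Tet1, an enzyme that oxidises methylated cytosine, fell by 1.89 ± 0.40 on the log2 scale (SE, adjusted p = 0.00276), with 14 arrays below every pro-B array.

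Interferon response genes had 0 of 16 up and 3 down, beside 8.11% and 7.63% of all genes, and 4 down without array 122, beside 9.76%. Bst2, an antiviral protein that also marks plasmacytoid dendritic cells, ranged from 6.46 to 11.48 on the leukemic arrays (median 8.20), against 11.11 to 12.44 on the pro-B arrays (median 11.88) and fell by 3.68 ± 0.50 on the log2 scale (SE, adjusted p = 1.36e-05). Stat2, a factor of the interferon signal, fell by 1.17 (adjusted p = 0.0164, lost without pro-B array 2, 4 or 6), and Irf7 fell by 1.86 (adjusted p = 0.0377, lost without any of leukemic arrays 224, 227, 228 and A1322 and pro-B arrays 1, 2, 3, 4 and 6). Mx1, an antiviral GTPase, ranged from 4.77 to 11.34 on the leukemic arrays (median 6.83), against 8.50 to 10.40 on the pro-B arrays (median 9.46), array 122 among the 2 above the pro-B range, and was called only without leukemic array 117, 122 or A992 (-2.29, adjusted p = 0.062 with all).

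Immediate early genes, which cells switch on within minutes of a stimulus, fell in 9 of 18 cases (10 without array 122) and rose in 0, beside 7.63% of all genes lower, with a median of -0.64. Fosb ranged from 3.76 to 7.10 on the leukemic arrays (median 5.07), against 7.27 to 9.76 on the pro-B arrays (median 8.77), and Fos from 5.71 to 10.17 on the leukemic arrays (median 8.79), against 10.90 to 11.84 on the pro-B arrays (median 11.45). No leukemic array reached a pro-B array for either gene, and they fell by 3.46 ± 0.46 and 3.05 ± 0.54 on the log2 scale (SE, adjusted p = 1.26e-05 and 0.000456). The normal pre-B arrays did not form 1 level: arrays 2, 3 and 8 had Fosb at 3.73 to 4.36, below the leukemic median, and Fos at 9.69 to 10.03, below every pro-B array, while the other 5 had Fosb at 9.30 to 10.50 and Fos at 11.93 to 12.62. Jun, the partner of Fos in AP-1, fell by 2.65 (adjusted p = 0.0117) with 14 arrays below and 1 above, and Klf4 by 1.64 (adjusted p = 0.0245, lost without pro-B array 2, 4 or 6). Under median centring 2 members rose and 8 fell.

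Of the 684 genes that fell at least 2-fold, 474 were also at least 2-fold lower in normal pre-B than in pro-B cells and 210 were not (539 and 270 of 809 without array 122). Of those 210, 134 were expressed in normal pre-B cells (175 of the 270), and the largest falls that held on at least 90% of the leukemic arrays include genes outside the immediate early list. Tceal8, a gene related to elongation factor S-II on the X chromosome, ranged from 3.89 to 5.78 on the leukemic arrays (median 4.73), against 8.20 to 8.42 on the pro-B arrays (median 8.28), with a wide gap between the groups, and fell by 3.59 ± 0.20 on the log2 scale (SE, adjusted p = 4.97e-12). Its normal pre-B mean was 7.44. Rgs10, a regulator of G protein signals, ranged from 4.74 to 11.05 on the leukemic arrays (median 6.61), against 9.76 to 11.51 on the pro-B arrays (median 10.71), array 122 being the only one inside the pro-B range, and fell by 3.54 (adjusted p = 0.00103). Tmem163, a zinc transporter, fell by 3.04 ± 0.29 on the log2 scale (SE, adjusted p = 9.85e-08) on all 16 arrays.

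Akr1e1, an aldo-keto reductase, ranged from 3.38 to 8.25 on the leukemic arrays (median 4.63), against 8.03 to 8.59 on the pro-B arrays (median 8.17) and fell by 3.09 (adjusted p = 0.000571). Cav2, a caveolar coat protein, fell by 2.94 (adjusted p = 0.00275), but its other probe set gave 0.16, so its fall is uncertain. The same set holds S100a8 and S100a9, calcium-binding proteins of neutrophils, which fell by 3.65 and 3.20 (adjusted p = 0.000452 and 0.000184), and the adult globin gene Hbb-b2, which fell by 3.4 (adjusted p = 8.68e-08). Those 3 mark other cells, and all 4 normal fractions carried them, with S100a8 at 11.92 in normal pre-B cells. Globin genes are near copies of each other, so the level of Hbb-b2 alone is uncertain, and its other probe set gave -0.55.

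Markers of other blood cells were among the largest falls. Of all genes, 7.63% fell and 8.11% rose, or 9.76% and 12.2% without array 122. Of 16 plasmacytoid dendritic cell markers 15 fell (median -3.72), of 19 NK and T cell markers 14 (median -2.84), of 22 neutrophil and monocyte markers 14 (median -3.00, 19 without array 122) and of 15 eosinophil, basophil and mast cell markers 7 (9 without array 122), with 1 rise. Klra17, a Ly49-family receptor found on plasmacytoid dendritic cells, ranged from 4.18 to 9.40 on the leukemic arrays (median 5.62), against 11.09 to 12.32 on the pro-B arrays (median 11.71), and Ncr1, an activating receptor of NK cells, from 2.81 to 4.69 on the leukemic arrays (median 3.53), against 7.39 to 9.47 on the pro-B arrays (median 8.41). Neither overlapped, though Klra17 reached 9.40 on array 122. Klk1, a kallikrein listed with the dendritic markers, ranged from 2.57 to 6.10 on the leukemic arrays (median 3.42), against 8.81 to 11.43 on the pro-B arrays (median 10.19). The granule protease Gzma fell by 6.42, the granule protein Nkg7 by 4.25, and the neutrophil genes Lcn2 and Camp by 5.28 and 4.78 (adjusted p = 4.41e-08, 1.34e-05, 4.54e-06 and 1.87e-06). Arrays have no true 0. Of the NK and T markers, Ncr1 and Gzma had leukemic medians of 3.53 and 3.43, near the dimmest 10% of genes. Other members of that list were not so low on every leukemic array. Thy1 reached 10.16 on array 224, above its highest pro-B value of 8.99, Nkg7 reached 9.67 on A1507 and Cd3e 8.69 on 117. Gzma was above 5 on arrays 117 (5.67), 228 (5.92), A1507 (6.59) and 153 (7.65), all below its lowest pro-B value of 9.84.

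Prg2, the major basic protein of eosinophils, fell by 4.80 and Fcer1a, the IgE receptor chain of basophils and mast cells, by 2.90 (adjusted p = 4.01e-09 and 1.52e-13). Of 16 erythroid and platelet markers 3 fell, among them the carbonic anhydrase Car1 by 2.97 (adjusted p = 4.97e-12), and 1 rose, the platelet glycoprotein Gp9 by 0.67 (adjusted p = 0.0334, lost without pro-B array 1, 2, 3, 4 or 6). Of 10 plasma cell markers 4 fell, among them Jchain, the joining chain of secreted antibodies, by 2.90 and Xbp1, a factor of the secretory pathway, by 1.74 (adjusted p = 0.00962 and 0.000492). Of 17 conventional dendritic cell and macrophage markers 3 fell (4 without array 122), Clec10a and Itgax among them by 5.52 and 3.56 (adjusted p = 3.46e-05 and 0.00155, and by 5.91 and 3.91 without array 122), and 1 rose, Mertk, a receptor for dying cells, by 1.35 (adjusted p = 0.0378, lost without pro-B array 1, 2, 3, 4 or 6), with a normal pre-B mean of 5.51.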

How the data were processed

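RNA of sorted mouse B-lineage cells was measured on Affymetrix arrays, 1 array per sample. The authors deposited linear intensity values that were processed with RMA, per the submitters' processing notes; whether all 39 arrays were normalized together is not given in the sources used here. The deposited intensities were put on the log2 scale with no offset. Of 22690 probe sets, 64 controls, 691 with several gene symbols and 1555 with no symbol were left out, and 1 probe set was kept for each of 12393 genes. Array medians lay between 6.36 and 6.76. No counts lie behind the values, and the number of arrays limits the precision.

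Leukemic pre-B arrays (n = 16) were compared with pro-B arrays (n = 6) with lmFit and eBayes with an intensity trend (limma 3.58.1, R 4.3.3), and p-values were adjusted over all genes by the Benjamini-Hochberg method. Tables and plots were made with python 3.11.15, pandas 2.3.3 and matplotlib 3.10.9. The fit was tested on simulated data with known changes. The members, gene lists and tests were chosen with earlier results of these data known. Named genes were the largest rises (above every pro-B array on at least 90% of leukemic arrays) in genes below and at or above 7 in normal pre-B cells, the largest falls on the same terms in genes expressed there and not more than 2-fold lower than in pro-B cells, from each list the 4 called and the 2 uncalled members that differed most, and a fixed set of B-lineage and leukemia genes. Alternatives changed the scaling, the filter, the probe sets, the arrays in the fit, the spread model, the accession run and the pIpC arrays, and left out each array in turn.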

Additional observations from a re-analysis of the deposited data

Results flagged for a closer look

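In 2 of the named genes, 1 pro-B array lay apart from the other 5. H2bc22 was 5.942 on pro-B array 2, the lowest of the 6, with the nearest other array at 6.321 and the highest at 6.521. Akr1e1 was 8.589 on pro-B array 1, the highest of the 6, with the nearest other array at 8.218 and the lowest at 8.025. Chance sets an array apart in this way in about 1 in 20 groups, and the leukemic group is too large for the same test.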

How the results depend on the processing

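The counts of called genes depended strongly on the setting. With all 39 arrays in 1 fit, 1518 genes were higher, and of the genes expressed in normal pre-B cells 409 were higher and 649 lower. Array weights gave 3286 higher and 1687 lower, 186 rises of at least 2-fold with 68 of them above normal pre-B cells too, and 932 higher and 851 lower in the expressed genes. Leaving out dim genes, which lowers the number tested, gave 239 higher and 582 lower, with 52 and 440 at least 2-fold. Median centring gave 5537 higher and 768 lower, 543 rises of at least 2-fold with 95 above normal pre-B cells too, and 1908 higher in the expressed genes, while quantile normalization gave 744 higher and 834 lower overall and 379 higher in the expressed genes. Run 1 alone gave 47 higher and 297 lower, 13 and 275 at least 2-fold, 8 rises above normal pre-B cells too, and 37 and 101 in the expressed genes. Run 2 alone gave 230 and 556, 64 rises above normal pre-B cells too, and 103 and 221. With the run as a covariate 577 expressed genes were higher. Without the pIpC arrays 368 were higher and 628 lower, and 80 and 267 in the expressed genes. Except for the fewer genes or arrays of some settings, the cause was not tested.

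Over the fits that left out 1 array each, counts ran from 278 to 1738 higher, 582 to 1209 lower, 50 to 153 and 489 to 809 at least 2-fold, 23 to 54 above normal pre-B cells too, and 59 to 359 higher and 222 to 569 lower in the expressed genes. Of 100 called named genes, 26 kept their call in all 12 other alternatives and 66 whichever array was left out. Only Dnmt3a, of those called, changed sign, to -0.131 with the mean of probe sets. Uncalled genes changed sign as follows. Mki67 was 0.162 under median centring, 0.018 with the run as a covariate and 0.049 in run 2. Slc2a3 was 0.132 with ambiguous probe sets left out, and Cdk6 -0.157 and Il2ra -0.265 in run 2. Aff1 was -0.078 in run 1, -0.005 with the run as a covariate and -0.052 without pIpC arrays, which also gave Vpreb1 -0.137, Rag1 -0.276, Rag2 -0.104, Erg -0.090 and Kit 0.473. In run 1 Rag1 was -0.009 and Kit 0.407. Igll1 was 0.076 with array weights, 0.103 under median centring and 0.063 in run 2, and Il7r 0.098, 0.238 and, with the mean of probe sets, 0.039. With 1 array left out, Aff1 ran from -0.009 to 0.074, Vpreb1 from -0.006 to 0.280, Igll1 from -0.251 to 0.111 and Il7r from -0.088 to 0.155. No paired analysis was possible because the leukemic and pro-B arrays share no replicate numbers.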

Other observations

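The genes below were chosen after their values were seen, and no test of a cause was made. The 3 probe sets of Mycn, a Myc family gene, disagreed. On 1425923_at, 10 leukemic arrays lay between 11.665 and 13.360 and the other 6 (A992, A1322, A1507, 270, A46 and 17) between 3.206 and 3.654, against 2.839 to 3.050 on the pro-B arrays. The leukemic arrays thus formed 2 separate sets on this probe set, and the lower one held all 5 arrays from pIpC-treated mice and array 17. The difference was 6.40 there, -1.63 on 1417155_at and 0.64 on 1425922_a_at, which stands for the gene in the fit.

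Among genes expressed in normal pre-B cells, several varied widely between the leukemic arrays other than 122. Mpo, myeloperoxidase of neutrophil granules, ranged from 3.67 to 11.14 on those arrays and from 9.90 to 11.61 on the pro-B arrays. Zeb1, a zinc finger repressor, ranged from 4.29 to 11.25 on the leukemic and from 10.27 to 11.01 on the pro-B arrays. Ets2, an Ets factor, ranged from 5.60 to 12.76 on the leukemic arrays, reaching beyond the 9.93 to 11.21 of the pro-B arrays on both sides.

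Xist, an RNA of the inactive X chromosome, lay between 4.57 and 12.70 on the leukemic arrays and between 11.61 and 12.77 on the pro-B arrays. The Y-linked Eif2s3y was above 7 on 6 leukemic arrays (153, 154, A992, 270, A46 and 17), and between 2.36 and 2.55 on the pro-B arrays. Leukemic arrays 153 and 17 were above 7 for both genes, array 153 with Xist at 9.65 and Eif2s3y at 7.73.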
